A study of Mus musculus with 4 samples.

Results

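The comparison described here is the loss of STAT4 in T helper 1 (Th1) cells, taken as the log2 expression value of each probe set in the Th1 STAT4-deficient array minus that in the Th1 wild type array. It covers the 45037 probe sets that are not controls, read as 18193 genes, on 2 of the 4 arrays of the series. Naive CD4+CD44-CD62L+ T cells were sorted from mouse spleen and lymph nodes, from C57BL/6J (wild type) mice for one array and from C57BL6-STAT4<tm1> (STAT4KO) mice for the other. Both cultures were activated through CD3 and CD28 for 3 days in the presence of interleukin-12 while interleukin-4 was neutralized, kept for 4 days in interleukin-2 and interleukin-12, and restimulated on day 7 for 2 h through CD3 and CD28 with interleukin-12. So both groups saw interleukin-12 throughout and had interleukin-4 neutralized during activation, and the labels give genotype as their only difference. The other arrays held Th2 wild type (C57BL/6J) and Th2 STAT6-deficient (B6.129S2©-STAT6<tm1Gru>/J, STAT6KO) cells, grown in interleukin-4 while interferon gamma was neutralized, and are quoted for context. Age, sex, the number of mice and whether cells were pooled are not given in the sources used here. Each group is a single array, so nothing measures the spread between cultures, nothing was tested, and every value describes these arrays.

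Interleukin-12 binds a receptor made of the chains Il12rb1 and Il12rb2, whose kinases Tyk2 and Jak2 phosphorylate STAT4, which then dimerizes and enters the nucleus. In T cells this signal, together with T-bet, is known for installing interferon gamma production and the interleukin-18 receptor, through which Th1 cells make interferon gamma in response to cytokine alone. Dimers of STAT proteins bind DNA at a palindrome of the form TTCNNNGAA.

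A gene was represented by its brightest probe set over the 4 arrays. It was called when its 2 Th1 values differed by at least 1 log2 unit (2-fold) and the brighter reached 5.82, the median of all probe sets on the 4 arrays (the level minimum). Without STAT4, 779 of the 12608 genes that reached it were higher (6.18%) and 673 were lower (5.34%), 11.5% in all. The larger differences lay below wild type: 135 genes were at least 4-fold lower and 49 at least 4-fold higher, 46 against 12 were at least 8-fold apart, and 15 against 4 at least 16-fold. Most genes stayed close, with 68.2% of those at the level minimum within 1.5-fold.

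**Figure D1:**
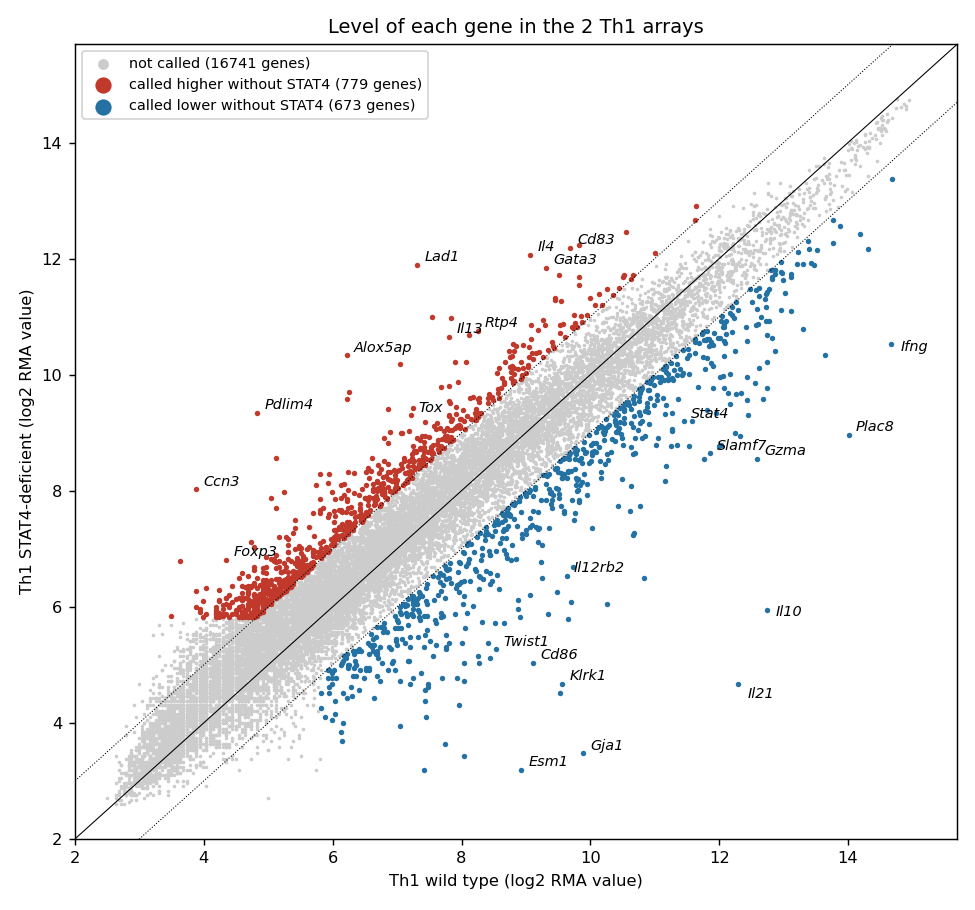
Each point is 1 of 18193 genes, placed by its log2 RMA value in the Th1 wild type array (x axis) and the Th1 STAT4-deficient array (y axis); the solid line marks equal values, dotted lines 2-fold, and colours the calls. The points furthest from the line lie below it, with Il21 and Il10 among the genes above 12 in wild type and below 6 without STAT4.

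The direction of the calls moved with level. In genes whose mean over both Th1 arrays lay between 4 and 6 the median difference was 0.32 log2 units, with 270 called higher and 77 lower. Between 10 and 12 it was −0.15, with 37 higher and 157 lower, and above 12 it was −0.31, with 2 higher and 37 lower. The STAT4-deficient array was also the narrower one, with an SD over probe sets of 2.18 against 2.33 in wild type, and its 25th percentile read 4.81 against 4.44. After quantile normalization, which gives the arrays 1 distribution, the medians in these 6 level classes ran from −0.01 to 0.10. Calls were therefore repeated after median centring, loess, quantile normalization and centring on hybridization controls, which moved the median gene by −0.24, −0.15, −0.13 and 0.39. The share of calls that were higher was 53.7% as deposited and 24.8%, 39.9%, 46.3% and 87.5% under these. Under all 5 scalings 339 genes were called higher and 339 lower, 2.69% of genes each way, and these are termed held calls below.

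**Figure D2:**
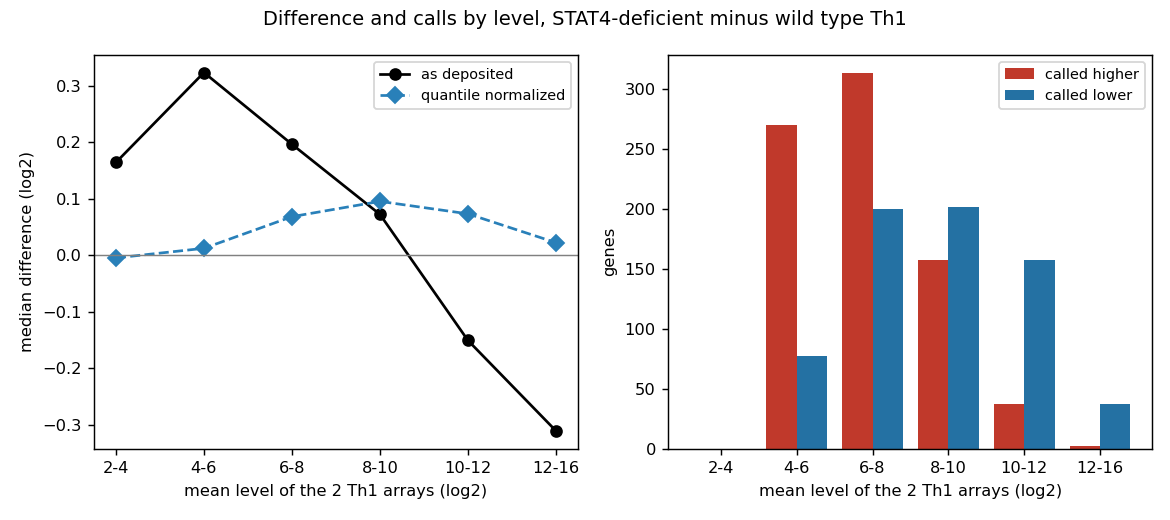
Left, the median difference between the Th1 arrays (log2) for genes binned by mean level, as deposited and after quantile normalization; right, the number of genes called in each bin. As deposited the median falls from 0.32 at levels of 4 to 6 to −0.31 above 12, and calls change from mostly higher to mostly lower.

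The only Stat4 probe set assigned to 1 gene read 11.45 in wild type and 9.20 in STAT4-deficient cells, a difference of −2.26. It was not lost from the knockout array, and the Th2 arrays gave 8.96 (wild type) and 9.90 (STAT6-deficient). Whether its probes lie in the deleted part is not given in the sources used here, so it is no check of the genotype. Among the nearest genes on either side that had a probe set of 1 gene, Gm17767 was 14.5-fold lower (9.65 in wild type and 5.79 without STAT4) and Nabp1, a single-stranded DNA binding protein, differed by −2.30. On the other side Nab1, a corepressor of EGR factors, differed by −0.86, Nemp2 by −0.66, Mfsd6 by −1.36 and Inpp1 by −1.21, and Hibch by 0.00. Beyond Nabp1, Slc39a10, a zinc transporter gene, was called higher (7.64 and 8.87), while Cavin2 (0.75) and Tmeff2 (−0.49) were below the level minimum on both arrays. On the Th2 arrays (wild type, then STAT6-deficient) Gm17767 read 8.5 and 6.3, Nabp1 11.8 and 10.7, Mfsd6 10.6 and 9.8 and Inpp1 7.2 and 8.3. The Th1 groups may also differ in sequence flanking Stat4, so an effect of that sequence and one of STAT4 cannot be told apart for these neighbours. Whether they do, and how far such sequence extends, is not given in the sources used here. Il18r1 and Il18rap, named below, also lie on chromosome 1, and whether it reaches them or other genes there was not tested. CD4 T cell markers were present on both arrays: Cd3e read 12.11 and 12.05, Cd4 10.79 and 11.65, Cd5 13.04 and 13.04. Of 9 such markers 1 was called, Cd28, at −1.01. The beta-actin control, which reads higher at the 3′ than the 5′ end when RNA is degraded, had a 3′ minus 5′ difference of 0.32 in wild type and 0.66 in STAT4-deficient cells, and the Gapdh control −0.16 and 0.17. The part of RNA quality in the differences below was not tested.

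In the interleukin-12 and interleukin-18 pathways the lower genes were mainly receptor chains. Besides Stat4 itself 6 of the 19 measured genes were lower, 7 in all against 1 higher, 6 of the 7 calls held, and the median was −0.32 beside 0.13 for all genes at the level minimum; centred on the hybridization controls it was 0.07. Il12rb2, the chain that recruits STAT4, read 9.63 in wild type and 6.53 without STAT4, and 4.52 and 5.48 in the Th2 arrays, so the knockout value lay between Th1 and Th2 wild type. Il12rb1, the shared chain, read 7.77 and 6.65. Il18r1 and Il18rap, the chains of the interleukin-18 receptor, read 12.78 and 11.26 in wild type and 10.93 and 9.03 without STAT4. Gadd45g, which encodes an activator of the p38 kinase cascade downstream of both cytokines, was 12.86 and 10.41, while its relative Gadd45b was 12.90 and 12.58. The decoy receptor gene Il1r2 was lower as well (9.19 and 7.33). Jak2 (12.88 and 13.04) and Tyk2 (8.47 and 9.05) did not reach 2-fold, nor did Myd88 (−0.76), the adaptor of the interleukin-18 receptor, or its kinase gene Irak2 (−0.89). Irak3, an inhibitor of that kinase complex, was the higher member, at 4.54 and 5.99, and that call held under 2 of the other 4 scalings.

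Among the JAK and STAT genes Stat4 was the only one called of 10. Stat3 differed by −0.71, Stat2 by 0.24, Stat5a by 0.04, Stat6 by 0.50, Stat5b by 0.91, Jak1 by 0.14 and Jak3 by 0.33. Of the genes that STATs induce and that feed back on them, 4 of 20 were lower and none higher. Socs3, an inhibitor of cytokine receptor signalling, read 11.17 and 8.42, Bcl3 10.49 and 8.91, the kinase gene Pim3 12.73 and 11.39, and Bcl6 8.37 and 7.23; of these 2 calls held, Socs3 and Bcl3. A dimmer Bcl6 probe set differed by −0.03. Receptors for other cytokines mostly stayed within 2-fold, 15 of 19. The higher calls were Ifngr2, the signalling chain of the interferon gamma receptor that differentiated Th1 cells are known to lose, at 6.12 in wild type and 8.10 without STAT4, and Il6ra at 8.55 and 10.03. Il7r (−1.12) and Il10ra (−1.15) were lower, but a dimmer Il10ra probe set differed by 1.44.

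The gene starts of Ifng, Il12rb2 and Il18r1 are shown because their signals were lower without STAT4 and their promoter windows hold the STAT palindrome. The windows run from 250 bases before to 50 after a RefSeq start, 5′ to 3′ on the gene's strand, in build GRCm38.p6, and capitals mark TTCNNNGAA. The Ifng window is chr10:118440796-118441095 (+), that of Il12rb2 is chr6:67376139-67376438 (−), and that of Il18r1, 1 of 3 listed starts, is chr1:40465756-40466055 (+).
Ifng: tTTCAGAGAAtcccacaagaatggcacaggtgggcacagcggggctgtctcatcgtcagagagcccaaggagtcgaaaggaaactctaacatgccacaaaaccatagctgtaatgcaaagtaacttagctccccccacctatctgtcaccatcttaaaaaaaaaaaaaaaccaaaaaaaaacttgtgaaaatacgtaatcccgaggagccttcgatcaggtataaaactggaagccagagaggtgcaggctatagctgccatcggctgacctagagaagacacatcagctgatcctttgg
Il12rb2: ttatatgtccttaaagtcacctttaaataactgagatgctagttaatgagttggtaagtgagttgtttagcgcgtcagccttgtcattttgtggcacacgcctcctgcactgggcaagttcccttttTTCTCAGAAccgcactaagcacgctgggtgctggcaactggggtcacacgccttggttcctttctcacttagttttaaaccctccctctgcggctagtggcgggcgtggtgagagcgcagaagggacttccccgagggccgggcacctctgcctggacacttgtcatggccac
Il18r1: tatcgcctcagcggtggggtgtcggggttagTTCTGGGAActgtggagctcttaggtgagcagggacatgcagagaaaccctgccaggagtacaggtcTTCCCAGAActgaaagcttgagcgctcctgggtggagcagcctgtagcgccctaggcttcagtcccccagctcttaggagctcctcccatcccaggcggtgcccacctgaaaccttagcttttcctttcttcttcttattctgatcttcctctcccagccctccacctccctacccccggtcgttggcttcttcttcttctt
Relative to the start, the palindrome begins at −249 in Ifng and −123 in Il12rb2, and Il18r1 holds 2 copies, the first at −219. Searched over all genes, it was found at close shares in lower and higher ones. It occurred in a window of 47 of 539 lower genes with a RefSeq window (8.72%), 50 of 602 higher genes (8.31%) and 843 of 10171 genes at the level minimum (8.29%). Over all 27025 genes with a window, on the arrays or not, it occurred in 2582 (9.55%). A match is a description of letters in this window, and binding was not measured on these arrays.

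Of 16 transcription factors linked to Th1 cells 8 were lower and 1 higher. Their median difference was −1.03, and 5 lower calls held. The largest difference was in Twist1, a basic helix-loop-helix factor that restrains Th1 inflammation: it read 8.54 in wild type and 5.27 without STAT4, against 4.66 and 5.66 in the Th2 arrays. Hlx, a homeobox partner of T-bet, read 7.77 and 5.51, Hopx, a survival factor of Th1 effector cells, 11.77 and 10.10, and Id2, an inhibitor of E proteins, 12.43 and 10.58. Id2 and Hopx had all probe sets past 2-fold, from −2.55 to −1.86 and from −2.28 to −1.67. Prdm1, which encodes Blimp-1, was 7.35 and 5.92. Bhlhe40 (−1.24), Zeb2 (−1.23) and Runx3 (−1.15) were called as deposited and under 1, 3 and 2 of the other scalings, and another probe set gave 0.17 for Zeb2 and 0.11 for Runx3. T-bet's gene, Tbx21, read 12.26 in wild type and 11.36 without STAT4, both above the 7.69 of Th2 wild type cells, and Irf8 (13.31 and 13.04), Eomes (8.46 and 7.92) and Ets1 (11.35 and 11.31) were also within 2-fold. Irf1 was the exception, at 11.64 in wild type and 12.90 without STAT4. Not all of the lower factors were dim in Th2 cells. On the Th2 arrays (wild type, then STAT6-deficient) Id2 read 13.17 and 10.54, Hlx 7.01 and 5.08 and Hopx 9.79 and 10.05.

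**Figure D3:**
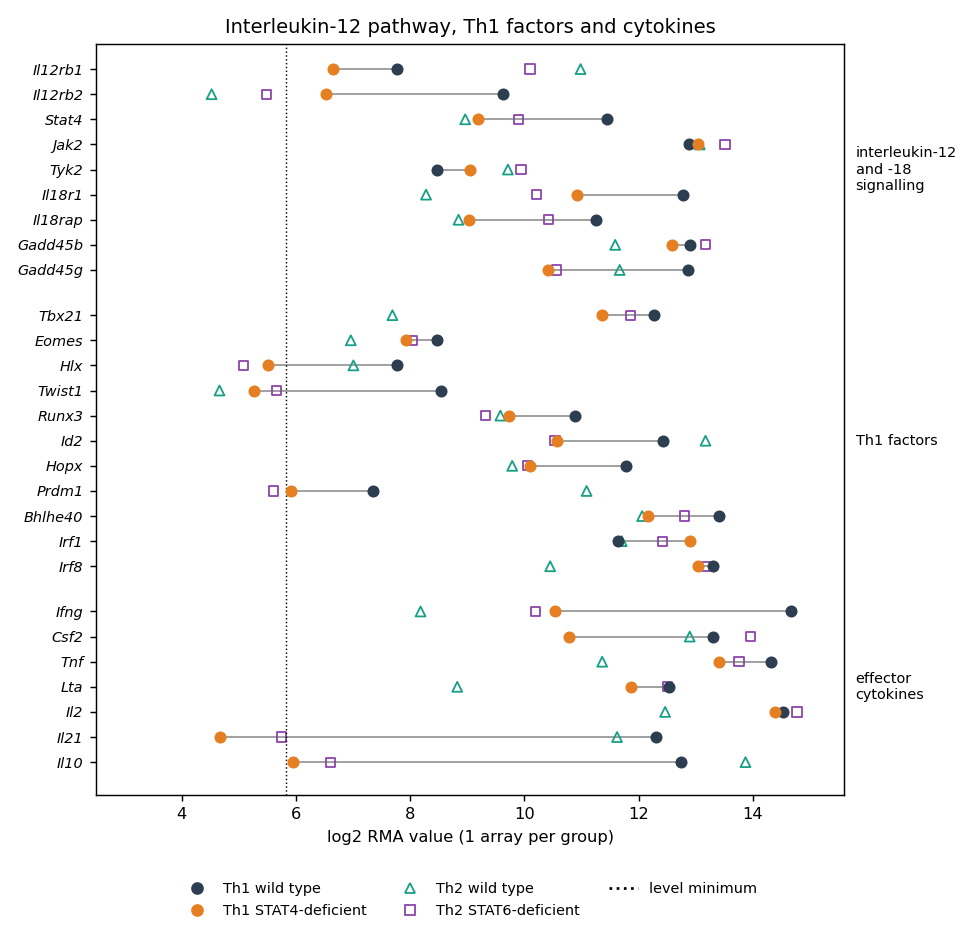
Log2 RMA value (x axis) of genes of the interleukin-12 and interleukin-18 pathways, Th1 factors and effector cytokines in each array; filled circles are the Th1 arrays joined by a line, open symbols the Th2 arrays, and the dotted line is the level minimum of 5.82. Il12rb2, Twist1, Ifng, Il21 and Il10 have long lines, while those of Jak2, Irf8 and Il2 are short.

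Effector cytokines were affected unevenly. Of 14 at the level minimum 2 were lower, none higher, and both calls held. Ifng read 14.67 in wild type and 10.54 without STAT4, and the latter was still above the 8.18 of Th2 wild type cells. Csf2, which encodes the myeloid growth factor GM-CSF, read 13.31 and 10.79, and the Th2 arrays read 12.90 (wild type) and 13.96 (STAT6-deficient), both above the Th1 knockout. Il3, the neighbour of Csf2 in the genome, read 13.71 and 13.46. Il2 (14.53 and 14.39), Tnfsf11 (12.38 and 12.42), Ltb (13.86 and 13.53), Cd40lg (10.43 and 10.13), Mif (13.10 and 13.24) and Lif (12.54 and 13.12) were also similar on both arrays. Tnf (−0.90), Fasl (−0.85), Osm (−0.74) and Lta (−0.66) differed by less than 2-fold. Il21, a growth factor for B and T cells that was listed with the Th17 and Tfh genes, read 12.30 and 4.67, and Il10, an inhibitory cytokine listed with the Th2 and regulatory T genes, 12.74 and 5.94. On the brightest probe set of each gene these were the largest differences among the 18193 genes, but a second, dimmer Il21 probe set differed by −2.49. Both cytokines were bright in Th2 wild type cells (11.62 and 13.87).

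In cytotoxic granules 7 of 16 genes were lower and none higher. Of these calls 5 held, and the list's median was −0.53. Gzma (12.59 and 8.54), Ctsw, a cathepsin of cytotoxic cells (12.25 in wild type, 9.51-fold lower), the granule membrane gene Nkg7 (12.32 and 8.95) and Gzmk (8.51 and 5.71) differed most. Protease inhibitors that guard the cell against its own granzymes were lower too, with differences of −1.92 for Serpinb6b and −1.22 for Serpinb9, and Gzmb differed by −1.13, a call that held under 1 of the other scalings. Perforin (Prf1) was dim on both arrays, at 6.16 and 6.65, and the granule proteoglycan gene Srgn was bright on both, at 14.44 and 14.06. Among NK-type receptor genes 4 of 10 were lower and none higher, and all of these calls held. Slamf7, a receptor of the SLAM family, read 11.85 and 8.64, Klrd1 (CD94) 11.36 and 9.58, and Klrc1 (NKG2A, the partner of CD94) 7.74 and 3.63 on its main probe set and −3.94 on the other. Klrk1 read 9.56 in wild type and 4.67, below the level minimum, without STAT4. Klrc2 and Klrc3, close relatives of Klrc1, were below the level minimum on both arrays, and Cd160 (9.17 and 9.69), Hcst (a difference of −0.28) and Klrg1 (6.64 and 6.10) were within 2-fold. The NK cell genes Ncr1 (4.96 and 5.19) and Klra8 (3.35 and 3.19) were also below the minimum on both arrays, and Cd8a read 6.16 and 5.96.

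Of 14 chemokine genes 5 were lower and 1 higher. Inflammatory chemokines stood among the lower: Ccl3 read 14.31 and 12.17, Ccl4 14.68 and 13.37 and Ccl5 12.14 and 9.68, though under 2 of the other scalings Ccl4 was no longer called, and Cxcl11 under 1. Xcl1, the attractant of cross-presenting dendritic cells, read 12.02 and 9.97. Cxcl11, a ligand of CXCR3, read 6.84 and 5.57, while Cxcl10, another ligand of that receptor, was 10.64 and 10.67. Ccl1, the ligand of CCR8, was higher, at 9.83 and 12.24, as was its receptor gene Ccr8, at 8.12 and 10.68. Among receptors for chemokines and related attractants 5 of 16 were lower and 3 higher. Cxcr3, a Th1-associated homing receptor (12.26 and 9.66), and Cxcr6 (11.15 and 8.17) were lower. In Th2 wild type cells they read 8.95 and 12.52, so Cxcr6 was brighter there than in Th1 wild type cells. Ccr1 (8.04 and 5.03), Ccr2 (9.94 and 7.92) and Ltb4r1, the leukotriene B4 receptor (8.04 and 6.45), were lower with them. The 4 Ccr2 probe sets spread from −2.02 to 0.24. The receptors S1pr1, needed to leave lymphoid tissue (8.02 and 9.40), and Gpr183, a receptor for oxysterols (11.62 and 12.67), were higher, and of the calls among these receptors that of Gpr183 alone did not hold.

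Further genes among the 40 furthest below wild type fell outside these programs. In each direction the 40 were taken from called genes whose probe sets at the level minimum all passed 2-fold the same way. That rule left out Rgs2 and Nr4a2, given below. A gene with a single probe set at the level minimum always meets it, as did 30 of the 40 lower and 25 of the 40 higher genes. All 40 lower calls held, each of these genes was at least 8.03-fold lower, and 20 of them were below the level minimum without STAT4. Of all 673 lower genes 146 (21.7%) were below it. Cd86, the costimulatory ligand best known from antigen-presenting cells, read 9.12 in wild type and 5.03 without STAT4, and its second probe set differed by −2.41. In the Th2 arrays it read 3.49 and 7.38. The myeloid and B cell markers Cd14 (4.83 and 4.62) and Ms4a1 (5.20 and 5.51) were below the level minimum on both Th1 arrays, while Cd68 was 6.69 and 5.19. Other such markers were not all dim. Of the measured markers, 8 of 13 myeloid and dendritic ones and 5 of 9 B cell ones reached the level minimum. Among them Fcgr3 read 6.62 and 5.63, just short of 2-fold. Whether antigen-presenting cells had a part in the Cd86 signal was not tested. Transcription factors in this group were Msc, a helix-loop-helix repressor (9.69 and 6.08), Cebpd (8.04 and 4.72) and Batf3, a partner of Jun proteins (9.73 and 6.69). Chd7, a chromatin remodeller, read 12.03 and 8.79, with another probe set at −1.17. Plek, a protein kinase C substrate of blood cells, was 9.39-fold lower at 8.77, and its 3 probe sets lay between −3.37 and −2.88. Dcun1d3, a regulator of cullin neddylation, was 10.68 and 7.27, and both its probe sets gave −3.40 when rounded.

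Others in this group are best known from nonlymphoid tissue. Basp1, a membrane protein of growing axons, read 10.66 and 7.23, Slc17a6, a vesicular glutamate transporter gene, 7.45 and 4.10, and Ermn, a cytoskeletal gene of oligodendrocytes, 7.96 and 4.31. Gja1, which encodes a gap junction protein, read 9.88 and 3.48 with all 6 probe sets at −2.50 or lower. Calcrl, a receptor for adrenomedullin, read 7.44 and 4.37, against 12.01 in Th2 wild type cells. Esm1, which encodes a secreted proteoglycan, read 8.93 and 3.19. Plac8 read 14.01 in wild type and 8.96 without STAT4, against 8.78 in Th2 wild type cells, and G530011O06Rik read 7.42 and 3.19. Also in this group were P2ry10b (10.0-fold), Ttc39c (9.47-fold), Tubb2a (8.59-fold), Ajuba (8.55-fold) and Sdcbp2 (8.17-fold). In Th2 wild type cells 33 of the 40 reached the level minimum, and the share among all lower genes was not computed.

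Proteases, their inhibitors and matrix-linked genes had the highest share of lower members among the lists of 8 or more, 16 of 28 (57.1%), with 1 higher and a median of −1.20; 12 of the lower calls held, and the median stayed at −0.81 or below under the other scalings. Clade B serpins, intracellular protease inhibitors, were lower together. Serpinb1a read 9.52 and 4.52, Serpinb5 8.65 and 5.71, Serpinb6b 10.86 and 8.94, Serpinb6a 9.52 and 7.87 and Serpinb9 11.09 and 9.87. Timp1 and Timp2, inhibitors of metalloproteinases, read 8.91 and 11.04 in wild type and 5.82 and 9.64 without STAT4, and the collagenase gene Mmp13 8.04 and 3.43. The list also held the galectin gene Lgals3 (12.05 and 9.98), the annexin genes Anxa1 (9.80 and 8.21) and Anxa2 (12.11 and 10.93), and the membrane protease gene Adam8 (8.77 and 6.80). Ccn3, a secreted matricellular protein, was the higher member, from 3.88 to 8.02. The list was drawn up with earlier results of these data known, so its share is not independent of them.

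**Figure D4:**
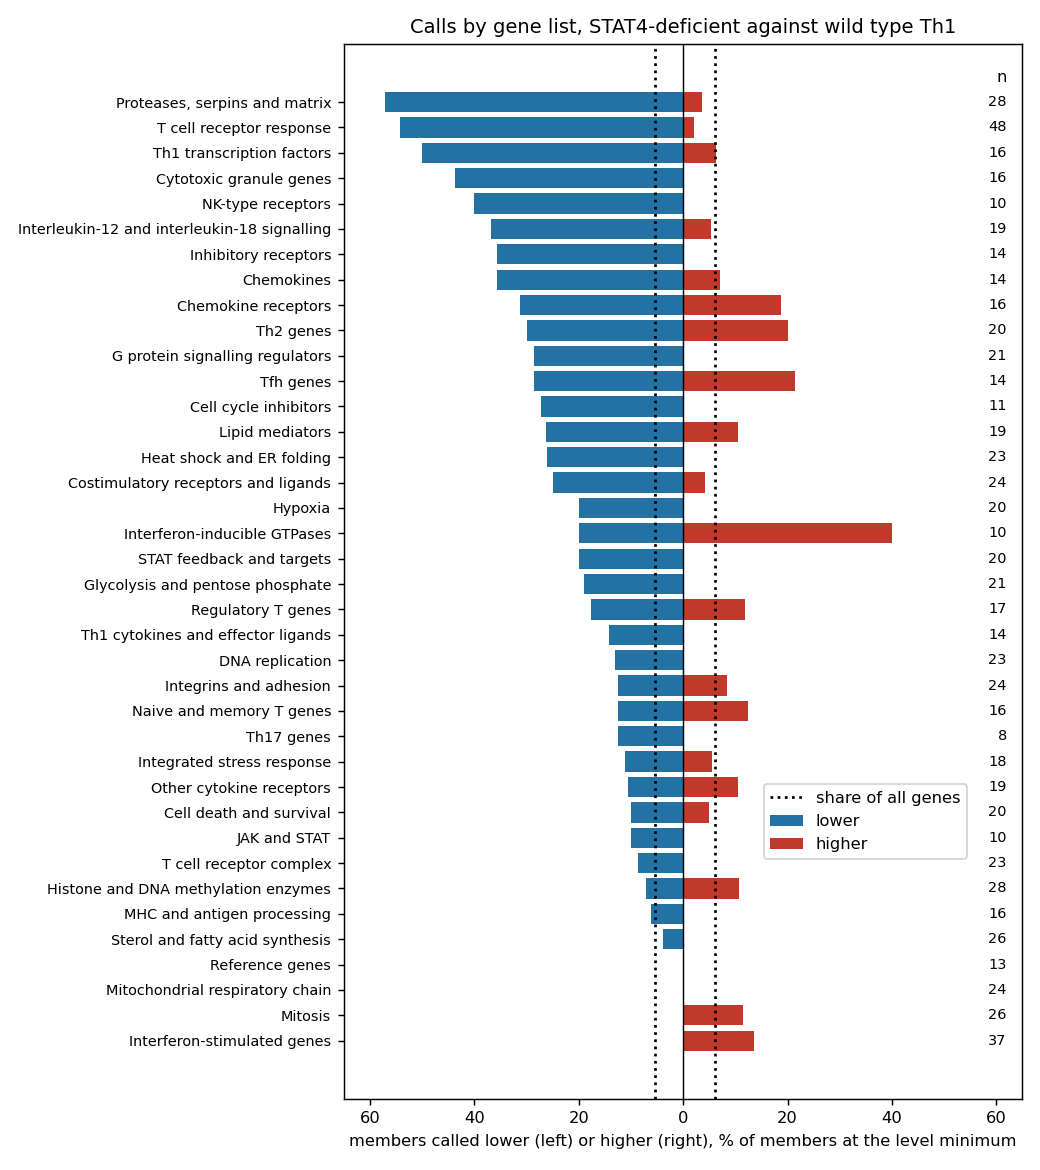
Members of each gene list called lower (bars to the left) or higher (bars to the right) in STAT4-deficient Th1 cells, as a percentage of the members at the level minimum (n at the right, lists of 8 or more). Dotted lines mark the share of all genes, 5.34% lower and 6.18% higher; the proteases, T cell receptor response and Th1 factor lists reach 50% or more lower.

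Genes induced within hours of T cell receptor engagement were lower in 26 of 48 (54.2%) and higher in 1, with a median of −1.18. Of the lower calls 20 held, and the median lay between −1.42 and −0.79 under the other scalings. AP-1 and related leucine zipper genes were among them: Fos read 12.96 and 11.11, Fosb 9.37 and 7.96, Fosl1 9.52 and 7.95, Fosl2 11.82 and 9.38, Jun 12.25 and 10.42, Maff 11.12 and 9.60, Atf3 12.74 and 10.68 and Crem 12.43 and 9.97. Junb (−1.15) and Jund (−0.56) differed less, and Batf by −0.38. Dimmer probe sets of Fosl2 and Jun differed by −0.57 and −0.76. Of the EGR and NR4A factors, Egr1 (14.19 and 12.43), Egr2 (13.30 and 11.92), Egr3 (12.97 and 11.76) and Nr4a2 (12.44 and 9.30) were lower. Nr4a1 (13.91 and 13.25) and Nr4a3 (14.02 and 13.45) were within 2-fold, and a dimmer Egr3 probe set differed by −0.05.

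Regulators of transcript decay and proliferation were also in this set. Zfp36, whose product degrades cytokine mRNA, read 12.17 and 10.02, and the antiproliferative gene Btg2 12.74 and 10.21. In the NF-κB family Rel (12.41 and 10.82) and Nfkbiz (12.57 and 10.85) were lower, while Nfkbia (−0.59), Relb (0.06), Nfkb2 (0.14) and Tnfaip3 (0.02) were not. Among dual-specificity phosphatases, which switch off MAP kinases, Dusp1 (−1.36) and Dusp4 (−1.25) were lower, Dusp2 (−0.67), Dusp5 (−0.79) and Dusp6 (−0.11) were within 2-fold, and Dusp10 was higher (7.44 and 8.94). Rgs2, a brake on G protein signalling, read 11.76 and 8.55, although a dim probe set of it differed by 0.33, and Rgs16 read 11.42 and 10.00. Other responses to the same restimulation were alike on both arrays, including Cd69 (12.29 and 12.11), Irf4 (13.54 and 13.26) and Spry1 (13.06 and 12.96). In the T cell receptor complex and its proximal kinases 2 of 23 genes were lower, Cblb (−1.02) and Cd28, neither held, and the median was −0.14.

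**Figure D5:**
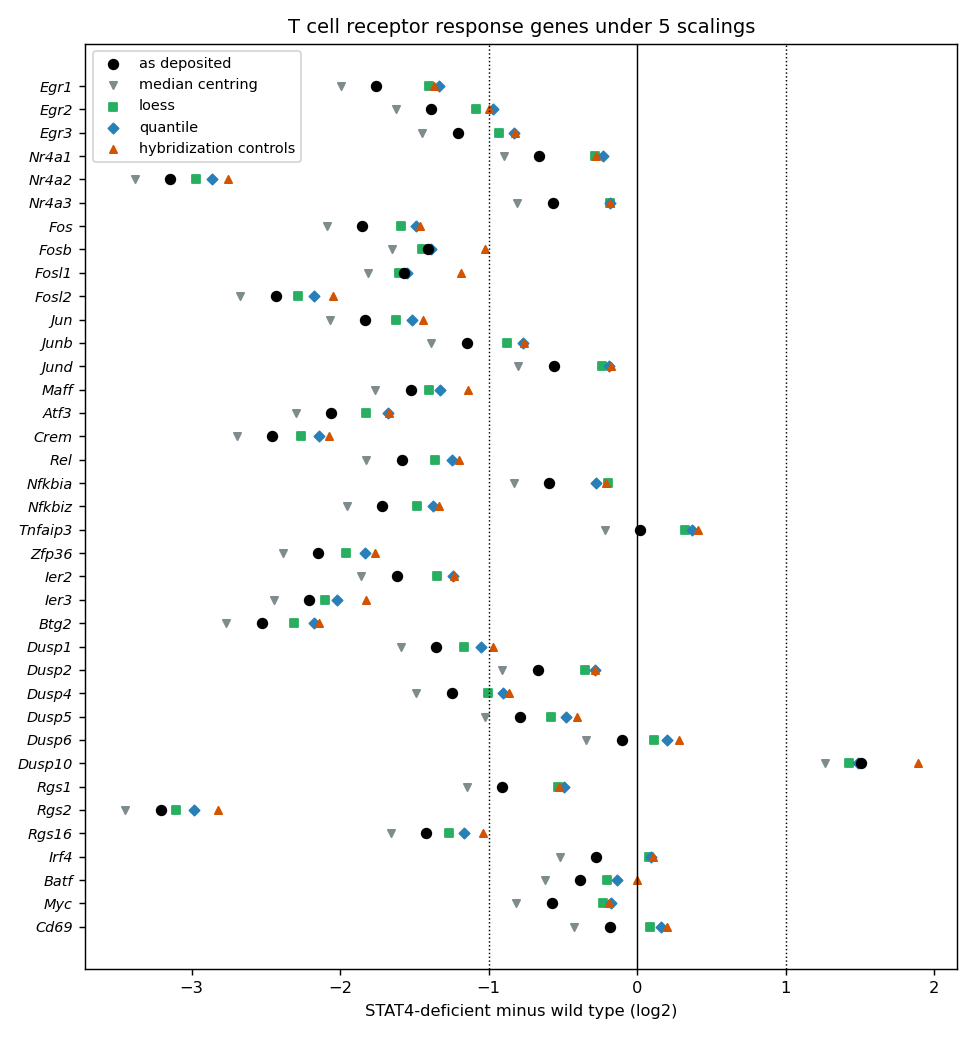
Log2 difference, STAT4-deficient minus wild type Th1, of genes of the T cell receptor response (rows) as deposited (black circles) and under 4 other scalings; dotted lines mark 2-fold. Nr4a2, Rgs2, Btg2, Crem and Fosl2 lie beyond 2-fold lower under each scaling shown, Tnfaip3, Dusp6, Irf4 and Cd69 change sign between them, Batf reaches 0 under centring on the hybridization controls, and Dusp10 stays above 0.

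The AP-1 binding motif TGANTCA, which also reads the same on both strands, was found in a promoter window of 62 of 539 lower genes (11.5%), 38 of 602 higher genes (6.31%) and 658 of 10171 genes at the level minimum (6.47%). Among the 40 genes furthest in each direction, 7 of the 30 lower genes with a window and 0 of the 28 higher genes held it. The STAT palindrome was held by 4 of these 30 lower and 5 of these 28 higher genes. These counts are descriptions of windows of the same length and carry no test. The windows of Slamf7, chr1:171648950-171649249 (−), and Mmp13, chr9:7272264-7272563 (+), are shown as examples from the lower genes, with the motif in capitals.
Slamf7: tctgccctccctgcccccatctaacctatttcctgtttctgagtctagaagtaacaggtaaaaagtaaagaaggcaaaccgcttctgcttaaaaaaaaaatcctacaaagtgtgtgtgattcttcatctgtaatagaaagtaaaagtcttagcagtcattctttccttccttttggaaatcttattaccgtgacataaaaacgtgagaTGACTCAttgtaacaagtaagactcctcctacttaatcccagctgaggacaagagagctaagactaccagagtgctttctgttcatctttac
Mmp13: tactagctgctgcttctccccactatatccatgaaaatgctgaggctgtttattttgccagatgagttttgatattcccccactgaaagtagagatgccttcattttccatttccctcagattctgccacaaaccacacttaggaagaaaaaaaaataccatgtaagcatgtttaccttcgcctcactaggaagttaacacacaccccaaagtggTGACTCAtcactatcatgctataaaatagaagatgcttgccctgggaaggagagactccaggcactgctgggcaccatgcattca
The motif begins at −42 in Slamf7 and −35 in Mmp13, and neither window holds the STAT palindrome.

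Receptors that restrain T cells were lower in 5 of 14 and higher in none. Ctla4 read 12.34 and 9.68, Pdcd1lg2, a ligand of PD-1, 9.76 and 7.62, Lag3 8.70 and 6.84 and Havcr2 (TIM-3) 7.25 and 6.14, while the call of Pdcd1 (PD-1, 10.57 and 9.49) was held under 1 of the other scalings and that of Havcr2 under 3. Costimulatory receptors and ligands were lower in 6 of 24, and 2 of these calls held, Cd86 and Icos. The list's median was −0.41, and 0.02 under centring on the hybridization controls. Besides Cd86 and Cd80 (6.55 and 5.37), which bind CTLA-4 and CD28, these were Icos (13.48 and 11.89), the 4-1BB ligand gene Tnfsf9 (12.02 and 10.64), Tnfrsf1b (−1.04) and Cd28. The death ligand gene Tnfsf10 (TRAIL) was higher, at 5.80 and 7.85, with its 3 probe sets between 1.25 and 2.06. Of the OX40 and GITR pairs, Tnfrsf4 (14.11 and 13.75), Tnfsf4 (9.34 and 9.13) and Tnfrsf18 (13.23 and 12.91) were within 2-fold.

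Receptors for lipids and metabolites and the enzymes behind them changed in both directions, 5 of 19 lower and 2 higher, and all 7 calls held. Ffar2, a receptor for short-chain fatty acids, read 10.83 and 6.50, P2ry14, a receptor for UDP-glucose, 8.87 and 6.12, and Cysltr1, a leukotriene receptor, differed by −1.74. Ptgs2 (COX-2) was dim in wild type, 6.14, and read 3.68 without STAT4. Alox5ap, which presents arachidonic acid to 5-lipoxygenase, was higher, at 6.22 and 10.34, and so was Gpr34, a receptor for lysophosphatidylserine, at 3.63 and 6.79. Of 21 small G protein and RGS genes 6 were lower and none higher, led by the calcium channel inhibitors Gem (10.26 and 6.05) and Rrad (12.68 and 9.58), and 5 of the 6 calls held.

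The higher genes included part of the Th2 program. Among 20 such genes that reached the level minimum there were 4 higher and 6 lower, and 4 calls held in each direction. Gata3, the Th2 regulator, read 9.31 in wild type and 11.84 without STAT4, Il4 9.06 and 12.07 and Il13 7.80 and 10.65. In Th2 wild type cells these read 12.95, 14.17 and 12.26, so the knockout values lay between the wild types. Other Th2 genes went the opposite way, with Il24 at 8.58 and 6.31, Ecm1 at 10.89 and 9.37, Nfil3 at 10.42 and 9.04 and Mmp10 at 7.23 and 6.18. Maf, an activator of Il4, gave −1.58 on its brightest probe set, and its 5 probe sets at the level minimum spread from −5.61 to 0.40.

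Regulatory, follicular and naive T cell genes moved in part. Foxp3 read 4.34 and 6.81 and the integrin gene Itgae (CD103) 5.63 and 7.37, the higher 2 of 17 regulatory T genes, of which 3 were lower (Il10, Ctla4 and Entpd1, the last not held). Tox, a nuclear factor of persistently stimulated T cells, read 7.22 and 9.30, and its 3 probe sets lay between 1.17 and 2.09. Il6ra and the follicular factor gene Ascl2 (4.91 and 6.03) were higher with it, 3 of 14 Tfh genes against 4 lower, of which Icos, Il21, Bcl6 and Pdcd1 are given above. Dapl1, a gene of resting T cells, read 9.07 and 10.85. Lef1 (10.12 and 10.46) and 11 others of the 16 naive and memory genes were not called, with S1pr1 and Dapl1 higher and Il7r and Satb1 (−1.07) lower.

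Among the 40 genes furthest above wild type, each at least 4.12-fold higher, 38 calls held and 18 genes were below the level minimum in wild type. Of all 779 higher genes 352 (45.2%) were below it. Lad1, which encodes an anchoring filament protein of epithelia, was the furthest, at 7.31 and 11.90, with 6.84 and 11.79 in the Th2 arrays. Mcoln2, an endolysosomal cation channel gene, was 10.95-fold higher from 7.54, and Cd83, an activation marker, 9.68 and 12.19. The oxysterol-binding protein family genes Osbpl3 (6.22 and 9.58) and Osbpl5 (4.78 and 7.03) were both in this group. Transcriptional regulators here were Pou2f2 (OCT2), at 7.90 and 10.21 with 3 probe sets from 1.43 to 2.52, Tle1, a corepressor, at 5.94 and 8.29, and Phtf2, at 5.74 and 8.10. Bid, which links death receptors to mitochondria, read 7.68 and 9.79 on its main probe set and 2.00 higher on the other. In contrast Pmaip1 (NOXA), another BH3-only gene, was lower, at 10.63 and 8.08, as was Casp4, at 12.61 and 10.87. Further members were Pdlim4 (22.9-fold), Myo6 (8.82-fold), Crebl2 (7.12-fold), Myl10 (5.86-fold), Sema4b (4.42-fold), Ckap4 (4.49-fold), St8sia6 (4.35-fold) and the RNA sensor Tlr7 (4.23-fold).

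Transcripts from the T cell receptor gamma locus were higher without STAT4. Trgv4 read 5.12 and 8.57 on one probe set and 4.54 and 8.80 on another, and Trgv1 5.24 and 7.98. Other genes of gamma delta T cells did not reach 2-fold: Sox13 was 5.97 and 6.73, Cd163l1 7.07 and 7.18, and Blk 5.82 and 5.74. The immunoglobulin heavy chain gene Ighm read 8.76 and 10.30, with 7 probe sets from −0.24 to 1.73, and was the only B cell marker called of 5 at the level minimum, while Cd79a (5.69 and 5.99) and Cd22 (5.82 and 6.27) were dim on both arrays. Over the 11 marker lists for other cell types, 67 genes were measured, 37 reached the level minimum, 2 were higher (Trgv4 and Ighm) and 2 lower (Cd68 and Cpa3, a mast cell protease, 6.96 and 5.63). The summed level of the B cell list was 9.54 in wild type and 10.69 without STAT4 and that of the gamma delta list 8.17 and 9.42, as log2 of the sum. The part of other cells in the results was not tested, and fewer cells of a type and less RNA per cell cannot be told apart in these bulk samples.

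Interferon-inducible GTPases, which attack pathogen vacuoles and are induced by interferon gamma, included calls in both directions, and Ifng itself was lower. The higher calls were all of the IRG family: Irgm1 read 9.45 and 11.32, Irgm2 8.63 and 9.95, Iigp1 9.53 and 10.86 and Gm4951 6.18 and 7.93. Igtp (12.76 and 13.30) and Ifi47 (12.22 and 12.91), of the same family, differed by less than 2-fold. Of the guanylate binding proteins Gbp2 (13.42 and 11.92) and Gbp3 (11.35 and 9.99) were lower, Gbp7 differed by −0.59, and the 2 Gbp6 probe sets by 0.87 and 0.59. The list had 4 of 10 higher and 2 lower, with a median of 0.78 that stayed above 0.5 under the other scalings. Antiviral interferon-stimulated genes had 5 of 37 higher and none lower at the level minimum, with a median of 0.30. Rtp4, a chaperone of receptor transport, led them with 8.25 and 10.75, and its call alone held. Rsad2 (7.40 and 8.56), Slfn1 (10.45 and 11.50), Slfn5 (5.12 and 6.27) and Parp9 (9.44 and 10.46) followed, while Isg20, Cxcl10 and Ifi35 differed by 0.07, 0.03 and −0.03. Class I presentation and the immunoproteasome were within 2-fold in 15 of 16 genes, the exception being Cd74, the invariant chain of class II (9.94 and 8.67).

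Most cell cycle genes were not called. Of 26 mitosis genes 3 were higher and none lower, with a median of 0.37. Cenpf read 6.87 and 8.31, Bub1b 6.79 and 7.95 and Kif2c 6.55 and 7.58, and the Cenpf call alone held. The other Kif2c probe sets differed by −0.06 to 0.64. In DNA replication 3 of 23 were lower and none higher, and the median of −0.37 became 0.01 under centring on the hybridization controls: Rrm2 differed by −1.09, Cdt1 10.08 and 9.01 and Pola1 7.17 and 6.14, and none of these held. Cell cycle inhibitors were lower in 3 of 11, namely Btg2, Cdkn2d (9.94 and 8.12) and the p53 target Cdkn1a (12.99 and 11.62), and the Cdkn1a call did not hold.

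Metabolic and stress genes were lower in a minority of members. In glycolysis 4 of 21 were lower, the glucose transporter genes Slc2a1 (11.90 and 9.77) and Slc2a3 (11.53 and 10.01), the hexokinase gene Hk2 (12.08 and 10.33) and Pfkp (−1.06), while downstream enzyme genes such as Pgk1 (12.93 and 12.57) stayed within 2-fold. All of these calls except that of Pfkp held. Among hypoxia genes 4 of 20 were lower: Egln3, a hydroxylase that marks HIF for decay (13.65 and 10.34), the MYC antagonist Mxi1 (9.83 and 7.80), Hif1a itself (13.51 and 12.15) and the collagen hydroxylase gene Plod2 (9.47 and 8.39). Of these 2 calls held, Egln3 and Mxi1. Of heat shock and endoplasmic reticulum folding genes 6 of 23 were lower, including Dnajb9 (10.50 and 8.79), Dnajb1 (10.76 and 9.55) and Xbp1 (12.29 and 11.12), and 3 of these calls held, Dnajb9, Hspa1a and Hspa1b, a near-identical pair of genes. No gene of the mitochondrial respiratory chain was called among 24, with a median near 0, none of 13 reference genes, and 1 of 26 in sterol and fatty acid synthesis, Sc5d (−1.23).

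Enzymes of histone and DNA methylation, listed because the study also profiled histone marks, were mostly within 2-fold, 23 of 28. Dnmt3a (9.41 and 10.56) and Dnmt3b (8.14 and 9.24), the de novo DNA methyltransferases, and Ezh1 (7.34 and 8.47), a polycomb H3K27 methyltransferase, were higher, and Kdm5a (9.59 and 8.29), an H3K4 demethylase, and Uhrf1 (8.19 and 6.95), which recruits maintenance methylation, were lower. Each of these calls held under 3 of the other 4 scalings. The other Kdm5a probe sets at the level minimum differed by −0.51 to 0.55. Those of Dnmt3a differed by 0.3 to 1.6, and that of Dnmt3b by 0.6.

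Loss of STAT6 in Th2 cells, measured on the other pair of arrays, gave 806 genes higher (7.01% of 11490 at the level minimum) and 2237 lower (19.5%). On this pair of arrays beta-actin read 0.85 (wild type) and 2.08 (STAT6-deficient) log2 units higher at its 3′ than its 5′ end, and Gapdh 0.00 and 0.77, and the part of RNA quality in these calls and in the overlaps was not tested. Of the genes lower without STAT4, 270 were also lower without STAT6, 40.1% of the first list and 12.1% of the second, and 65 were higher. Of those higher without STAT4, 121 were higher without STAT6, 15.5% and 15.0% of the lists, and 75 were lower. Among the 40 genes furthest below wild type without STAT4, 26 were called lower without STAT6, including Il21, Il10, Gja1, Esm1 and Gzma. Plac8 (0.40), Serpinb1a (0.35), Klrk1 (0.15), Nkg7 (0.73), Slamf7 (−0.32) and Il12rb2 (0.96) did not reach 2-fold there, and Ifng (2.02) and Cd86 (3.89) were higher. No test of these differences between the losses can be made with 1 array per group.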

How the data were processed

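Total RNA of mouse CD4+ T cells was hybridized to Affymetrix mouse genome arrays, 1 array for each of 4 groups, of which the 2 Th1 arrays were compared. The authors deposited 1 log2 value for each probe set and array, computed with RMA (a background correction and probe summary method), per the submitters' processing notes; version and normalization settings are not given in the sources used here. Of 45101 probe sets, 64 controls were left out, and 34945 with 1 gene in the platform annotation were used. Symbols were updated through RefSeq (GRCm38.p6), which matched 34741. Each of 18193 genes took its brightest probe set, by the mean over all 4 arrays.

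Differences, calls and scalings were computed with Python 3.11.15, pandas 2.3.3 and statsmodels 0.14.6 (loess span 0.4). The code was also run on simulated arrays with known changes in bright genes and a uniform shift. These lacked the change of difference with level seen here, so that run does not show how the calls behave on these arrays. Hybridization-control centring used the mean of 18 bacterial and phage control probe sets. The 39 gene lists and 12 marker lists (898 of 1023 members measured) were chosen with earlier results of these data known. So was the rule for naming genes. It took Stat4 and its neighbours, called list members, and uncalled ones of the interleukin-12, Th1 factor and JAK and STAT lists. It also took the 40 furthest in each direction among called genes whose probe sets at the level minimum all passed 2-fold. Uncalled genes named from other lists were chosen after their values were seen. Motifs were searched in 300-base RefSeq windows. The number of arrays limits the precision.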

Additional observations from a re-analysis of the deposited data

How the results depend on the processing

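The number of genes called higher, 779 as deposited, was 359 after median centring, 500 after loess, 2385 by hybridization controls, 345 where the minimum was the 75th percentile of levels, 1179 with no level minimum and 156 at a 3-fold limit. The 673 lower calls became 1086 after median centring, 340 with the hybridization controls and 252 at 3-fold, and stayed within 1.5 times under the other settings tried. One of these asked all probe sets to pass, which a called gene with 1 probe set at the level minimum always meets. Where a called gene had several there, all passed 2-fold the same way in 117 of 335 lower genes (34.9%) and 78 of 269 higher genes (29.0%). All lay on the same side in 260 of these lower and 220 of these higher genes. The share that was higher, 53.65%, was 24.84%, 39.94%, 46.3% and 87.52% after median centring, loess, quantile normalization and hybridization controls, and 40.73% with the 75th percentile minimum, 61.53% with none, 38.24% at 3-fold and 56.38% where all probe sets of a gene had to pass. The scalings differ in where they set the median gene, which moves both counts. Named genes that were called differed by at least 1 log2 unit by choice. The scalings moved the median gene by 0.39 or less either way, so a change of sign was unlikely from the start. Of 231 named genes that were called none changed sign under the 4 other scalings, and 17 moved by more than 0.51 under quantile normalization. With the mean over a gene's probe sets Il10ra (0.324) and Sc5d (0.11) did, and 53 others moved by more than that, the SD of the difference between probe sets of 1 gene. No paired analysis was possible because each group has 1 array, and no replicate could be left out.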

Other observations

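The deposited values are coarse. The 45101 probe sets took 3605 distinct values on the Th1 wild type array and 3338 on the Th1 STAT4-deficient array, and genes such as Esm1 and G530011O06Rik share the reading 3.19 without STAT4.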
